A study of Rattus norvegicus with 18 samples.

Results

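The comparison described here sets kidney RNA of diabetic rats given the high dose of plantain flour (HP, 4 g per kg body weight) against that of diabetic rats given water (DM). It uses 6 of the 18 libraries of the series, 3 in each group, and all 29 listed features, of which 12 are mitochondrial genes, 16 are nuclear genes and 1 has no gene name. The libraries were chosen by their labels alone, and mitochondrial and nuclear genes were examined separately within each library. HP and DM share the diabetic state, male sex and an age of 23 weeks, and differ in the feed. Healthy rats given water (NC) or the high dose (NH), and diabetic rats given 1 (LP) or 2 (MP) g per kg, serve only as reference values. The sources used here give neither the strain, nor how diabetes was brought about, nor for how long the flour was fed.

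Much of the RNA of whole kidney comes from the proximal tubule, the nephron segment that takes back filtered sodium, phosphate, glucose and amino acids. Its cells are packed with mitochondria, whose own genome encodes core parts of ATP synthase and of the respiratory complexes. The ATP feeds the sodium pump of the basolateral membrane, whose beta subunit is needed for its assembly and delivery. The proximal tubule also makes glucose, oxidises fatty acids and hydroxy acids, and builds glutathione, the main small antioxidant of the cell. Of 10 proximal tubule markers, 8 were among the listed features (among them Pck1, Hao2, Slc34a1 and Slc3a1). No marker of the thick ascending limb, distal nephron, collecting duct, podocyte, endothelium, immune, blood or fibroblast lists was among them, so the cell makeup of the libraries could not be compared. In such bulk RNA, fewer cells of a type and less RNA per cell cannot be told apart.

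The promoters of 4 genes that moved within the nuclear class are shown first. Slc3a1, Gclc and Hao2 kept a call as higher under every within-class alternative run, and Eef1a1 kept a call as lower. Aadat also rose under every alternative but lost its call under some of them. Each stretch runs from 250 bases before to 50 bases after the gene's start in RefSeq (build GRCr8, given on the gene's own strand), and capitals mark matches to the motifs named after them.
Slc3a1 (chr6:15394700-15394999, minus strand): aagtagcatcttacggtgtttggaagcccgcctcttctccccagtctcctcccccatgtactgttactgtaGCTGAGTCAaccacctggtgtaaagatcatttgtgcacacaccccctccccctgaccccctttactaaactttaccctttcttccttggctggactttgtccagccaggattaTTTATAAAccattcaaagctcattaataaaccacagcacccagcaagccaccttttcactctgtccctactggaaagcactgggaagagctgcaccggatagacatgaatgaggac
Gclc (chr8:87510226-87510525, plus strand): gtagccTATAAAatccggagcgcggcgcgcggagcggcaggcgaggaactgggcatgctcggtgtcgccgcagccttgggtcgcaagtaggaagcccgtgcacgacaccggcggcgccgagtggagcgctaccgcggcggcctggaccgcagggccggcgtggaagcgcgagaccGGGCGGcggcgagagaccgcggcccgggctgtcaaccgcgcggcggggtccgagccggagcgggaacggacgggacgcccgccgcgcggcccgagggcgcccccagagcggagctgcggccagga
Hao2 (chr2:188913084-188913383, minus strand): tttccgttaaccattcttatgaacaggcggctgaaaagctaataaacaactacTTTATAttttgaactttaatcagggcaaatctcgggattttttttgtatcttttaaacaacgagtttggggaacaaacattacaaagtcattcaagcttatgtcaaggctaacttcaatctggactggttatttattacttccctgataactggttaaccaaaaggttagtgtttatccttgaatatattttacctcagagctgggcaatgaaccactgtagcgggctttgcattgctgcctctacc
Eef1a1 (chr8:88225020-88225319, minus strand): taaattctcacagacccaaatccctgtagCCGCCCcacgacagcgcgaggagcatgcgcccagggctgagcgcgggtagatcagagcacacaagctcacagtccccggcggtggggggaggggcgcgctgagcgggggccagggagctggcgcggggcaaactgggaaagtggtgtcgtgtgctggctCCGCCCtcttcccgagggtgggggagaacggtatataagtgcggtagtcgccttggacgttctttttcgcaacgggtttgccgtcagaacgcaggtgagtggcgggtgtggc
The motifs searched on both strands were the TATA box TATAAA, the CCAAT box, the GC box GGGCGG, the core of the antioxidant response element TGACNNNGC and the HNF1 core GTTAAT. Promoters were found for 13 of the 16 nuclear genes. TATAAA lay in the promoters of Slc3a1, Gclc and Hao2 and not in that of Aadat. Counted from the gene's start, its first base lay at -244 in Gclc and -197 in Hao2. In Slc3a1 it lay at -66 and -64, in overlapping matches on both strands. Eef1a1 had no exact match, and its window holds the near match tatataag, left unmarked. None of these is taken as a working TATA box. It lay in 5 of the 13 promoters found and in 14.2% of the 33465 rat promoters searched. GGGCGG lay once in Gclc and at 2 places in Eef1a1, against 33.1% of all promoters. The antioxidant response element core lay in Slc3a1 and not in Gclc, against 12.1% of all promoters. CCAAT (37.5% of all promoters) and GTTAAT (7.44%) were in none of these 4 windows. A match is a description of letters and not a site of binding.

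Mitochondrial RNA took a larger part of the listed counts at the high dose. The summed counts of the 12 mitochondrial genes were 4085135, 3604951 and 4054360 in DM replicates 1 to 3, and 6597300, 4939603 and 4602455 in HP replicates 1 to 3. The summed counts of the 16 nuclear genes were 837890, 792745 and 810026 in DM, and 843795, 816725 and 825216 in HP. Every HP library was therefore above every DM library in mitochondrial counts, while the nuclear sums of the groups overlapped. The ratio of the sums was 4.88, 4.55 and 5.01 in DM and 7.82, 6.05 and 5.58 in HP, with no overlap. It was 1.33 times higher in HP (log2 0.42, SE 0.15; two-sided exact permutation test, p = 0.1, which is the lower limit for 3 libraries a group). The lower doses did not show this rise: the ratio was 3.36 to 3.69 in LP, below DM, and 3.82 to 4.59 in MP, overlapping DM. In healthy rats the ratio was also higher at the high dose, 16.8 to 21.3 in NH against 12.6 to 13.8 in NC, which was not tested. Every HP library lay below every NC library. Library depth is unknown, because only these 29 features are listed, with 4440262 to 7552061 counts per HP or DM library.

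**Figure D1:**
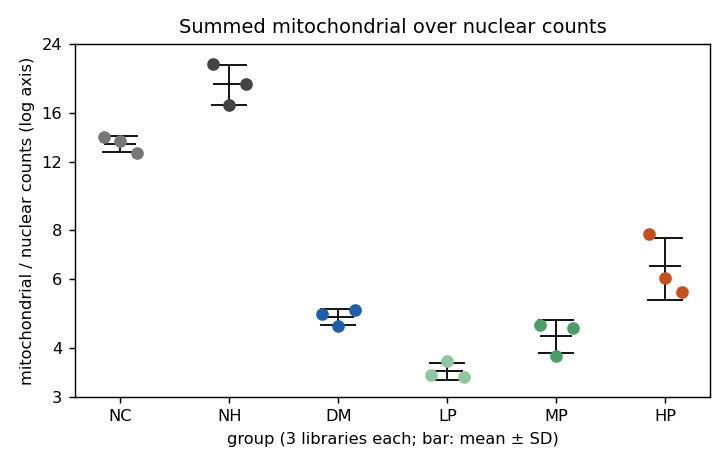
Mitochondrial over nuclear counts, summed over genes, in each library (points, log axis) by group, with the mean and SD of 3 libraries. The HP libraries, from 5.58 to 7.82, lie above the DM libraries, from 4.55 to 5.01, and HP replicate 1 is the highest diabetic library.

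HP replicate 1 stood apart from the other HP libraries. Its mitochondrial share of the named genes was 88.66% (95% Wilson interval 88.638 to 88.683%, counting error only), against 85.8 and 84.8% in HP replicates 2 and 3. Without it, the log2 difference of the ratio was 0.27.

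To remove this shift, each gene was next measured against its own class. The log2 count of a gene was taken relative to the geometric mean of the 12 mitochondrial or the 16 nuclear genes of the same library, so the values depend on no library scaling. Such values balance within a class: when some genes rise, others fall by construction. By edgeR's quasi-likelihood test over 28 genes, 13 differed between HP and DM at an adjusted p under 0.05 (46.4% of the genes tested), 7 higher and 6 lower. Among nuclear genes 4 were higher, 3 lower and 9 did not pass (43.8% called), and among mitochondrial genes 3 were higher, 3 lower and 6 did not pass (50% called). Calls for 6 nuclear genes and 1 mitochondrial gene held under all 10 alternatives run. Without HP replicate 1 there were 8 calls, and without DM replicate 2 there were 7. The HP and DM libraries did not overlap on this scale for 15 of the 28 genes (53.6%).

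**Figure D2:**
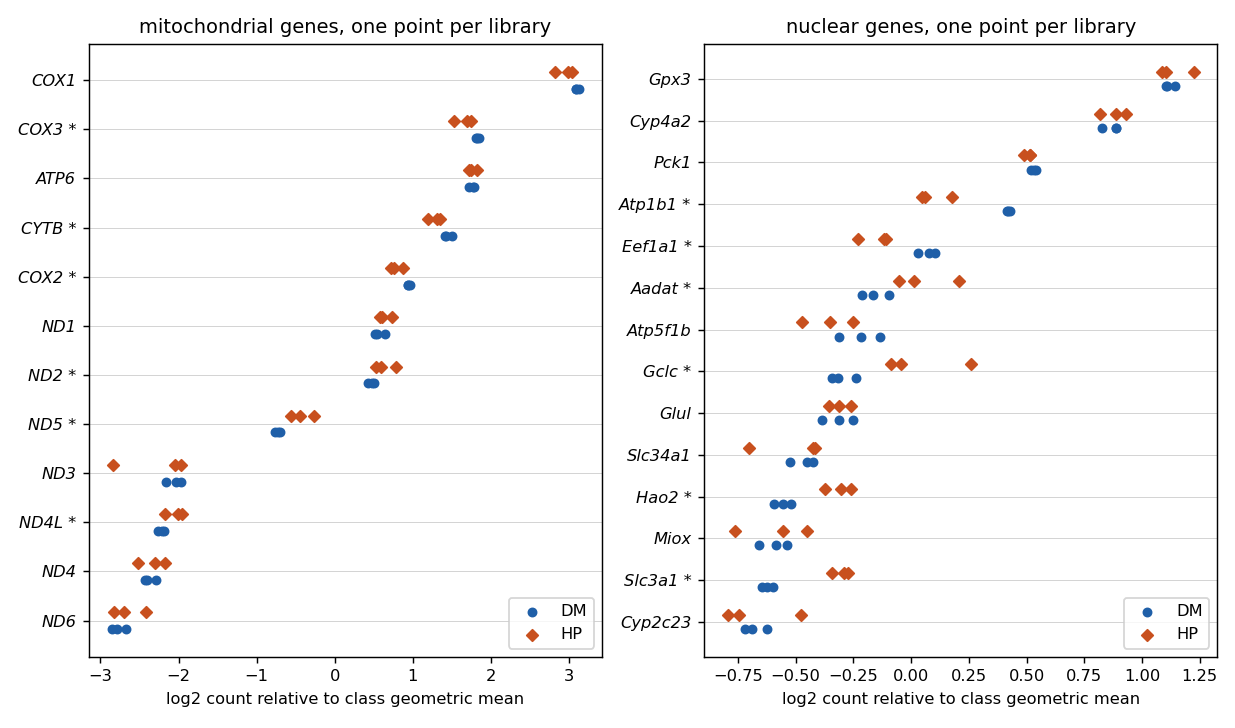
Log2 count of each gene shown relative to the geometric mean of its class, with 1 point per library for DM (circles) and HP (diamonds); asterisks mark genes with an adjusted p under 0.05 within class. The HP and DM points of Atp1b1 and Slc3a1 are clearly apart, while those of Cyp4a2 and Glul overlap.

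The beta subunit of the sodium pump was lower at the high dose. Atp1b1, which encodes it, had 65111, 61172 and 62518 counts in DM replicates 1 to 3 and 55471, 49475 and 50422 in HP. Its share of nuclear counts was 7.77, 7.72 and 7.72% in DM and 6.57, 6.06 and 6.11% in HP. No HP library reached a DM library on either scale. Relative to its class Atp1b1 fell by 0.33 on the log2 scale (SE 0.053, adjusted p = 0.0001446 by edgeR). It was also lower under all 4 scalings of the whole list, by log2 -0.70 (TMM), -0.58 (median-of-ratios), -0.33 (nuclear) and -0.28 (unscaled). Each pair of nuclear genes gives a count ratio that needs no reference at all, and the HP and DM ratios did not overlap in 70 of 120 pairs (58.3%). Atp1b1 was the lower partner in HP in 11 of its 15 pairs.

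Eef1a1, the elongation factor that carries aminoacyl-tRNA to the ribosome, was lower as well. Its counts were 51042, 46806 and 50116 in DM and 41817, 44167 and 44856 in HP, or 6.09, 5.90 and 6.19% of nuclear counts against 4.96, 5.41 and 5.44%. The groups did not overlap. Relative to its class it fell by 0.22 (SE 0.041, adjusted p = 0.0003814 by edgeR), and the call was absent with unscaled counts (log2 -0.18, adjusted p = 0.201 by edgeR). Eef1a1 has many processed pseudogenes, and how shared reads were counted is not given. The NC libraries, at 5.74 to 5.79%, lay above HP and below DM.

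Slc3a1 was raised evenly across the HP libraries. It encodes the heavy subunit of the brush border transporter for cystine and basic amino acids, the gene affected in some forms of cystinuria in humans. Its counts were 31394, 29292 and 30813 in DM and 40527, 39190 and 38220 in HP. As a share of nuclear counts it made up 3.75, 3.70 and 3.80% in DM and 4.80, 4.80 and 4.63% in HP. The gap between the groups was wider than the spread within either. Relative to its class it rose by 0.32 (SE 0.037, adjusted p = 4.903e-06 by edgeR), and by 0.31 without HP replicate 1. In 13 of its 15 pairs the ratio was higher in HP without overlap.

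Gclc, which encodes the catalytic part of glutamate-cysteine ligase, the first step toward glutathione, rose relative to its class by 0.35 (SE 0.086, adjusted p = 0.003821 by edgeR). It had 38880, 36184 and 39581 counts in DM and 58681, 46500 and 45553 in HP. Its share of nuclear counts was 4.64, 4.56 and 4.89% in DM and 6.95, 5.69 and 5.52% in HP. HP replicate 1 was the highest, and the other HP libraries still lay above DM, so that the rise was 0.23 without it (adjusted p = 0.02441 by edgeR). Gpx3, the secreted glutathione peroxidase that the kidney releases into plasma, held its place as the top nuclear gene per kb in every HP and DM library. It took 12.4, 12.4 and 12.7% of nuclear counts in DM and 13.6, 12.4 and 12.6% in HP, and its difference of 0.02 (SE 0.081, adjusted p = 0.962 by edgeR) did not pass.

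Hao2, a peroxisomal oxidase of hydroxy acids, had 32917, 30405 and 32535 counts in DM and 40934, 38834 and 37373 in HP. Its share was 3.93, 3.84 and 4.02% of nuclear counts in DM and 4.85, 4.75 and 4.53% in HP, without overlap. Relative to its class it rose by 0.24 (SE 0.046, adjusted p = 0.0003814 by edgeR). Aadat, which transfers amino groups from lysine breakdown products and kynurenine, had 5.15, 4.99 and 5.39% in DM and 6.72, 5.91 and 5.66% in HP. It rose by 0.22 (SE 0.070, adjusted p = 0.02023 by edgeR) and did not pass without HP replicate 1 (0.14, adjusted p = 0.1596), without DM replicate 1 or without DM replicate 2. The other amino acid and inositol enzymes of that list did not pass: Glul, glutamine synthetase, differed by 0.01 (SE 0.061) and Miox, the oxygenase of myo-inositol, by 0.01 (SE 0.088). Under TMM scaling of the whole list, in which the mitochondrial counts take part, Slc3a1 (log2 -0.04), Gclc (-0.04), Hao2 (-0.12) and Aadat (-0.16) had the opposite sign and none passed. With unscaled counts all 4 were higher (log2 0.37, 0.39, 0.29 and 0.26, adjusted p of at most 0.04216 by edgeR), so their rise is a statement about the nuclear class and not about all RNA.

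The listed glucose-making, P450 and phosphate transport genes named here did not pass the test relative to their class. Pck1, the rate-limiting enzyme of gluconeogenesis, took 8.35, 8.40 and 8.25% of nuclear counts in DM and 8.31, 8.37 and 8.24% in HP, a difference of -0.02 relative to its class (SE 0.039, adjusted p = 0.7711 by edgeR). Its relative levels did not overlap, with HP lower, although the gap is within the error of the fit. Cyp4a2, a fatty acid omega-hydroxylase, differed by 0.01 (SE 0.055). Reads of Cyp4a2 may be shared with close paralogs of its family. Cyp2c23, an arachidonic acid epoxygenase of rat kidney, differed by 0.01 (SE 0.097), with 4.18% of nuclear counts in HP replicate 1 above DM (3.51 to 3.74%) and the other HP libraries below it (3.50 and 3.38%). Slc34a1, the brush border phosphate transporter, differed by -0.04 (SE 0.081). Of the 8 listed proximal tubule markers, 2 rose relative to the nuclear class (Hao2 and Slc3a1), 0 fell and 6 did not pass, the same share as the 25% called higher over all 28 genes. By TMM over the whole list, 0 of these 8 were higher and 3 lower, against 27.6% called lower of all features. A p that misses the threshold does not show that these genes were alike, and the errors bound the size of a difference only for the tighter ones such as Pck1. TMM scaling of the whole list gave another picture, with Gpx3 (log2 -0.35), Pck1 (-0.39), Cyp4a2 (-0.34) and Cyp2c23 (-0.37) lower (edgeR, adjusted p of at most 0.0476), and each turned positive with unscaled counts. Without HP replicate 1, Cyp2c23 alone of these passed (-0.32, adjusted p = 0.02511 by edgeR), and Gpx3 (-0.25, adjusted p = 0.101), Pck1 (-0.25, adjusted p = 0.2428) and Cyp4a2 (-0.18, adjusted p = 0.2428) did not. By this scaling 11 of 29 features passed (37.9%), 3 higher (10.3%) and 8 lower (27.6%), and 4 passed without HP replicate 1.

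**Figure D3:**
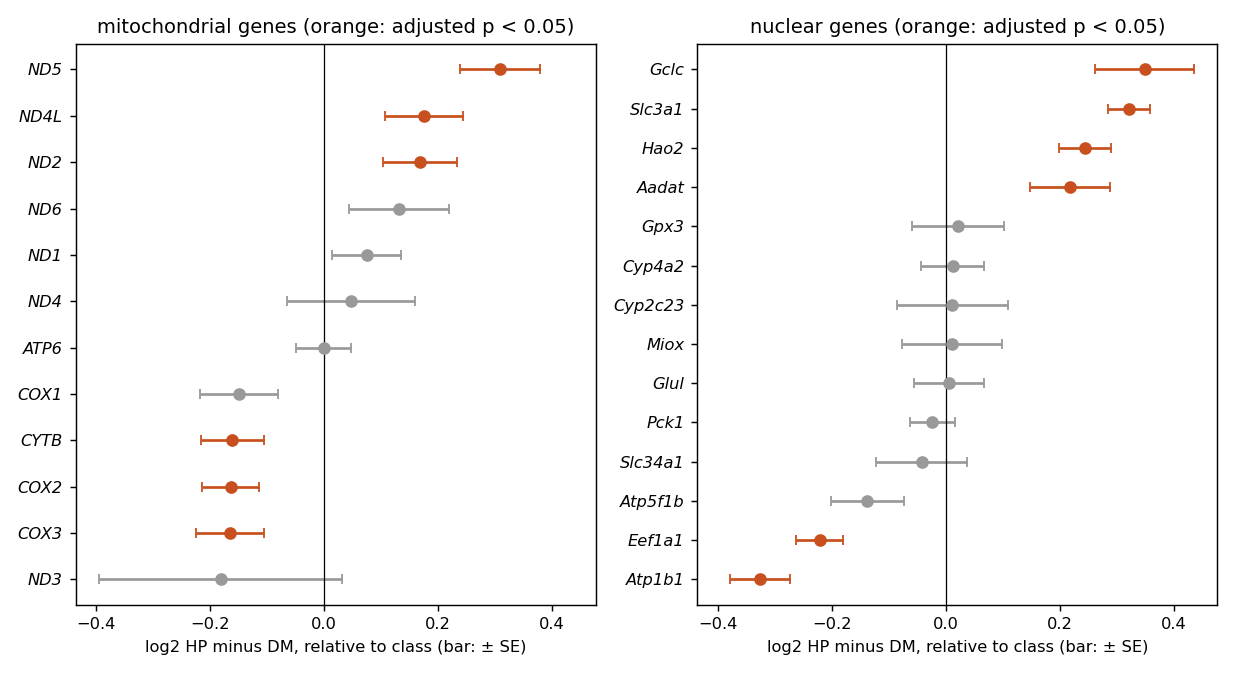
Log2 difference of HP minus DM relative to the gene's own class, with the SE of edgeR's fit, for mitochondrial and nuclear genes; orange points passed an adjusted p under 0.05. The nuclear genes shown run from -0.33 (Atp1b1) to 0.35 (Gclc), and the mitochondrial genes from -0.18 (ND3, with a wide error) to 0.31 (ND5).

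Within the mitochondrial genome, several messages of complex I rose and several of complexes III and IV fell relative to the class, most of them not without HP replicate 1. Complex I passes electrons from NADH to ubiquinone, and the listed ND genes are its mitochondrially encoded subunits. Of the 7 ND genes, 3 rose relative to the mitochondrial class, 0 fell and 4 did not pass, where 25% of all 28 genes were called higher. Their median difference was 0.13, against 0.01 over the 28 genes tested. Of the 4 complex III and IV genes, 3 fell and 1 did not pass, where 21.4% of all genes were called lower, and their median difference was -0.16. The 7 ND genes together made up 17.4, 17.2 and 17.6% of mitochondrial counts in DM and 22.2, 19.7 and 18.9% in HP, without overlap. This rise was not particular to the high dose or to diabetic rats. The ND share was also above DM in LP (18.4 to 19.4%) and MP (18.5 to 20.2%). It was 17.9 to 20.9% in NH, above NC (17.2 to 17.8%). The 4 COX and CYTB genes made up 68.3, 68.7 and 69.0% in DM and 62.2, 66.1 and 67.0% in HP. HP replicate 1 was the farthest from DM in both sums. Without it, ND5 was the 1 ND gene and COX2 the 1 gene of complexes III and IV that passed, and the medians were 0.046 and -0.11.

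ND5 carried the clearest of these differences. It lies on the plus strand of the mitochondrial genome at positions 11736 to 13565, as deposited, and encodes a large membrane subunit that takes part in proton pumping. Its counts were 101861, 87475 and 101045 in DM and 243757, 156270 and 131753 in HP. It made up 2.49, 2.43 and 2.49% of mitochondrial counts in DM and 3.69, 3.16 and 2.86% in HP. All HP libraries lay above all DM libraries, with a wider spread in HP. Relative to its class it rose by 0.31 (SE 0.070, adjusted p = 0.002093 by edgeR), and by 0.22 without HP replicate 1 (adjusted p = 0.01236). ND5 was also the higher partner in HP in 10 of its 11 pairs with other mitochondrial genes, where 31 of 66 such pairs did not overlap (47%). Along 23 bases ND5 overlaps ND6, which is encoded on the other strand, and a library kit that does not mark strand cannot tell their reads apart there.

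The other ND genes moved less evenly. ND2, a membrane subunit, took 5.76, 5.52 and 5.73% of mitochondrial counts in DM and 7.63, 6.50 and 6.09% in HP, and rose by 0.17 relative to its class (SE 0.065, adjusted p = 0.04467 by edgeR). ND4L, the small subunit encoded just before ND4, took 0.902, 0.857 and 0.874% in DM and 1.14, 1.07 and 0.937% in HP, and rose by 0.18 (SE 0.068, adjusted p = 0.04467 by edgeR). Neither passed without HP replicate 1 (0.09 for ND2 and 0.13 for ND4L, adjusted p of 0.3244 and 0.2095), and neither passed without HP replicate 2 or without any single DM library. ND1 (0.07, SE 0.060), ND6 (0.13, SE 0.088), ND4 (0.05, SE 0.11) and ND3 (-0.18, SE 0.21) did not pass. ND3 took 0.618% of mitochondrial counts in HP replicate 1 and 1.10 and 1.02% in the other HP libraries, against 0.903 to 1.05% in DM. By TMM over the whole list, ND2 (log2 0.27), ND4L (0.27) and ND5 (0.41) were the 3 features called higher (edgeR, adjusted p of at most 0.03671). They were called higher under the other scalings of the whole list as well. By TMM without HP replicate 1, ND5 alone of these passed (0.31, adjusted p = 0.02606 by edgeR).

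The value of ND4 is uncertain. The feature without a gene name, on chromosome 20, is described in the deposited table as similar to NADH-ubiquinone oxidoreductase chain 4, the product of ND4, and may share its reads. It had 53129, 42566 and 28685 counts in DM and 110966, 66532 and 56298 in HP, more than ND4 itself in all of these libraries but DM replicate 3. ND4 and this feature together made up 2.04, 2.00 and 1.46% of the mitochondrial counts plus the feature in DM, and 2.54, 2.07 and 2.13% in HP. The HP libraries were the 3 highest, with a narrow gap between HP replicate 2 and DM replicate 1. Under TMM the feature differed by 0.44 (SE 0.28, adjusted p = 0.2098 by edgeR).

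The cytochrome messages moved the other way relative to their class. COX2, a core subunit of cytochrome c oxidase, took 7.88, 8.03 and 7.77% of mitochondrial counts in DM and 8.12, 7.07 and 7.17% in HP, so that its shares overlapped. Relative to the geometric mean of the class it fell by 0.16 (SE 0.050, adjusted p = 0.01606 by edgeR). It did not pass without HP replicate 2 or without DM replicate 2. COX3, another core subunit, took 14.4, 14.5 and 14.5% in DM and 12.8, 14.0 and 14.2% in HP, and fell by 0.17 (SE 0.059, adjusted p = 0.03323 by edgeR). CYTB, the mitochondrially encoded subunit of complex III, took 10.9, 11.1 and 11.4% in DM and 10.1, 10.7 and 10.8% in HP, and fell by 0.16 (SE 0.055, adjusted p = 0.02836 by edgeR). COX3 and CYTB did not pass without HP replicate 1 (-0.10 and -0.12), without DM replicate 2 or without DM replicate 3, nor COX3 without DM replicate 1. With the class sum in place of the geometric mean as reference, COX2 (-0.08), COX3 (-0.09) and CYTB (-0.08) did not pass either. COX1, the most abundant listed message by count, differed by -0.15 (SE 0.069, adjusted p = 0.08931 by edgeR). In counts as deposited, all of these genes were higher in each HP library than in any DM library, and their fall holds only against the rest of the mitochondrial genome. With nuclear scaling COX1, COX3 and CYTB were higher in HP by edgeR, and with unscaled counts COX2 was as well.

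ATP synthase has subunits from both genomes. ATP6, a mitochondrially encoded subunit of the proton channel, differed by 0.00 from its class (SE 0.048). Atp5f1b, the nuclear-encoded catalytic beta subunit, took 4.97, 5.27 and 4.64% of nuclear counts in DM and 4.19, 4.60 and 4.92% in HP. The groups overlapped, and its difference of -0.14 (SE 0.064, adjusted p = 0.08931 by edgeR) did not pass. By TMM over the whole list Atp5f1b was lower in HP without overlap (log2 -0.49, adjusted p = 0.0476 by edgeR). It was also lower with median-of-ratios scaling (-0.38, adjusted p = 0.03559 by edgeR). It did not pass with nuclear scaling (-0.14), with unscaled counts (-0.09) or by TMM without HP replicate 1 (-0.31).

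Ranking the genes of each class by counts per kb within every library showed how little of this altered the order. On group means the order of the 12 mitochondrial genes was the same in HP and DM (Spearman rho of 1), and that of the 16 nuclear genes had a rho of 0.9. These are descriptions over genes measured in the same libraries. The 4 nuclear genes Gclc, Hao2, Aadat and Slc3a1 took higher places in every HP library than in any DM library. Gclc moved from places 14 to 15 in DM to 9 to 13 in HP, Hao2 from 11 to 12 to 9 to 10, Aadat from 8 to 9 to 5 to 7, and Slc3a1 from 13 to 14 to 11 to 12. No gene moved down without overlap on this scale. Ranking by counts without regard to length gave 10 such moves, 5 of them downward, COX3, Atp1b1, Eef1a1 and Slc34a1 among them.

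**Figure D4:**
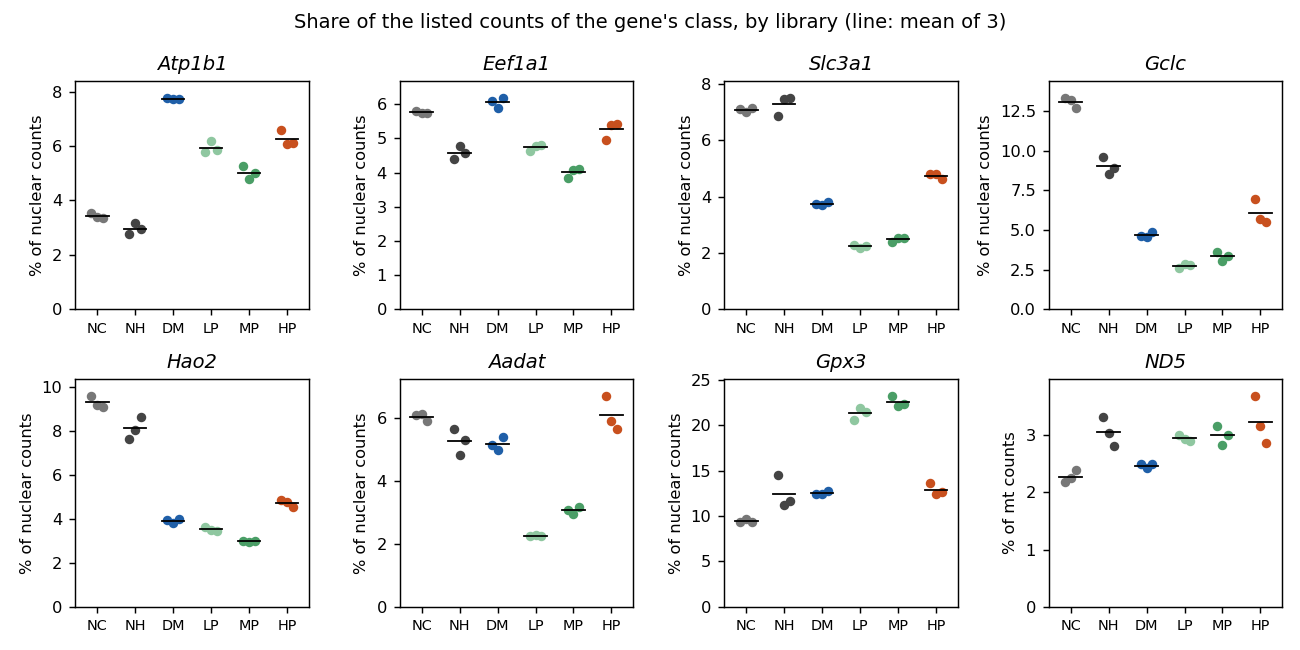
Share of each gene in the listed counts of its class (percent, axes from 0) in every library of the 6 groups, with the mean of 3 as a line. In HP, Atp1b1, Gclc, Hao2 and Slc3a1 lie between DM and NC, and ND5 lies above both.

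Beside the healthy libraries, several nuclear genes that moved held intermediate places. Atp1b1 made up 3.36 to 3.53% of nuclear counts in NC, 6.06 to 6.57% in HP and 7.72 to 7.77% in DM. Slc3a1 was at 7.02 to 7.13% in NC, 4.63 to 4.80% in HP and 3.70 to 3.80% in DM, and Gclc at 12.7 to 13.3%, 5.52 to 6.95% and 4.56 to 4.89%. Hao2 was at 9.09 to 9.61% in NC. Aadat in HP (5.66 to 6.72%) overlapped NC (5.91 to 6.15%), and ND5 in HP (2.86 to 3.69% of mitochondrial counts) was above NC (2.18 to 2.40%). The comparisons of HP and of NC with DM share the DM libraries, so no measure of their likeness is given. At the lower doses Slc3a1 was at 2.19 to 2.29% in LP and 2.40 to 2.54% in MP, below DM. Gpx3 and Pck1 took larger shares there (20.5 to 21.9% and 14.8 to 15.2% in LP). Gclc, Hao2 and Aadat also had lower mean shares in LP and MP than in DM. Relative to the class geometric mean, however, Hao2 was higher in LP (mean log2 -0.48) than in DM (-0.56), and lower in MP (-0.72). A share also falls when other genes of the class take more of the counts. In share of their class, Atp1b1, Eef1a1 and ND5 differed from DM in LP and MP in the same direction as in HP. The direction of these share differences was therefore not particular to the high dose. In counts, however, Atp1b1 and Eef1a1 had higher means in LP (63757 and 50925) than in DM (62934 and 49321). Their mean counts in MP (57191 and 45786) were below DM. Mean shares in LP, MP, HP and DM were 5.94, 5.02, 6.25 and 7.74% for Atp1b1. They were 4.74, 4.02, 5.27 and 6.06% for Eef1a1, and 2.95, 3.00, 3.24 and 2.47% for ND5. The lower doses were not tested here.

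Healthy rats given the high dose allowed the effect of the high dose to be compared between diabetic and healthy kidneys, with no libraries shared between the effects. The label of NH calls its dose high without giving the g per kg. Of 28 genes, 10 (35.7%) had a difference between the effects at an adjusted p under 0.05 by edgeR within class, and 8 of them held under all 15 alternatives. Gclc rose in HP over DM and fell by 0.53 in NH against NC, a difference of 0.88 (SE 0.12, adjusted p = 3.232e-05 by edgeR). Pck1 was close to 0 in diabetic rats and rose by 0.63 in healthy ones, a difference of -0.65 (SE 0.055, adjusted p = 7.283e-08 by edgeR). Hao2 (0.43), Aadat (0.41) and Slc3a1 (0.28) had differences toward a higher response in diabetic rats. Atp1b1 fell by 0.33 in diabetic and by 0.21 in healthy rats, and this difference did not pass (-0.12, SE 0.075). ND5 rose by 0.31 in diabetic and by 0.34 in healthy rats (difference -0.03, SE 0.099), and Eef1a1 fell in both. On the TMM scale of the whole list 1 of 29 features passed (3.45%), Gclc, with a difference of 0.88 (SE 0.11). Of the 29, 8 had an unadjusted p under 0.05. By TMM Gclc did not rise in diabetic rats (-0.04), and the difference came from its fall in healthy rats (-0.92).

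**Figure D5:**
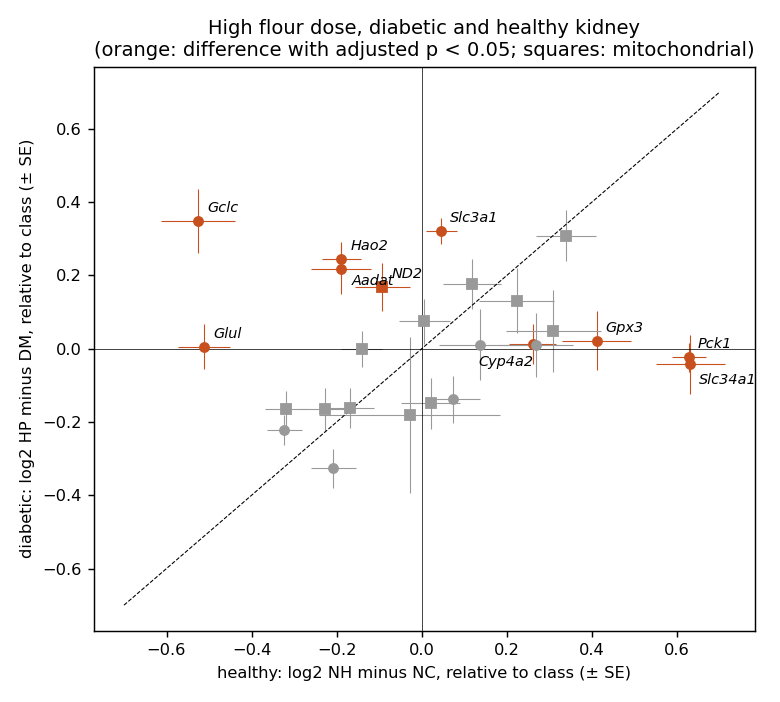
Log2 effect of the high dose relative to class in healthy rats (x axis, NH minus NC) and in diabetic rats (y axis, HP minus DM), with SEs; the dashed line marks equal effects and orange points have a difference with an adjusted p under 0.05. Gclc, Hao2 and Aadat lie left of 0 and above it, Pck1 and Slc34a1 lie far right near 0 on the y axis, and the grey points include Atp1b1 and ND5.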

How the data were processed

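Kidney RNA was measured in 18 libraries of male rats, of which the 3 HP and 3 DM libraries are the subject here. Libraries were made from 1 µg of RNA with a NEBNext Ultra RNA kit, per the labels' protocols. Per the submitters' processing notes, CASAVA 1.7, Bowtie 0.12.2 and mm8, a mouse build, were involved in roles left unnamed. The sources used here do not give the counter, the strand setting, the rat build or the annotation. Feature positions are those of the table.

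The deposited values were taken as counts, since all are whole numbers, although the table is titled as FPKM. Read as FPKM they would hold 5.88 to 12.1 times a library's reads. The 29 features are the only ones analysed, so depth is unknown; HP and DM counts ran from 21340 to 2059219, and counting error is small. The unnamed feature held 0.586 to 1.47% of listed counts and took part only in the fit of the whole list.

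Tests used edgeR 4.0.16 in R 4.3.3 (quasi-likelihood test fitted to the 18 libraries together, no dispersion trend, no filter, Benjamini-Hochberg adjustment over all features tested, threshold 0.05, two-sided). The SE is the log2 difference divided by the square root of F. One fit used TMM scaling over 29 features. The other used, as offset, the log geometric mean of the gene's class in each library. Alternatives were other scalings and class references, DESeq2 1.42.0, limma 3.58.1 on log2(scaled count + 1), HP and DM alone, a low-count filter, a replicate block and leaving out each library. Both fits were tested on simulated data, with changes larger than any within-class difference found here between HP and DM. Each recovered most of the changed genes. The TMM fit, even with no shift of the mitochondrial share, also called unchanged genes, and more often than the within-class fit. As many genes were raised as lowered in each class, which keeps the class mean unchanged and favours the within-class fit. The fits were also given different simulated counts. The simulation therefore cannot decide which fit is more reliable for these data. Every listed feature entered the fits and counts, and some are not reported here by name. Per-library values are given for features past the threshold within class and for the 3 largest differences of each class. Members, lists and tests were chosen with earlier results of these data known. For replicate pairs of HP and DM the chi-square over its degrees of freedom was 104 to 3662. Whether replicates are separate animals is not stated, and p-values then cover only the spread among these libraries, which may be technical. The labels name no batch.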

Additional observations from a re-analysis of the deposited data

Results flagged for a closer look

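The 10 genes given here were singled out because the high dose had different effects, relative to class, in diabetic and in healthy rats (edgeR, HP minus DM minus the difference of NH and NC). Higher differences were found for Gclc (0.88), Glul (0.52), Hao2 (0.43), Aadat (0.41), Slc3a1 (0.28) and the mitochondrial gene ND2 (0.26). Lower differences were found for Slc34a1 (-0.67), Pck1 (-0.65), Gpx3 (-0.39) and Cyp4a2 (-0.25). Glul, which makes glutamine from glutamate and ammonia, differed by 0.01 in diabetic rats and fell by 0.51 in healthy ones. Slc34a1 differed by -0.04 in diabetic rats and rose by 0.63 in healthy ones, and Gpx3 by 0.02 and 0.41. ND2 kept its call under 6 of 15 alternatives and Cyp4a2 under 13 of 15. On the TMM scale of the whole list Gclc alone passed, also with a difference of 0.88, there from a fall in healthy rats (-0.92) without a rise in diabetic rats (-0.04).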

How the results depend on the processing

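Counts of calls moved with scaling and with single libraries. For HP against DM over the whole list, TMM gave 11 calls, median-of-ratios factors 9, nuclear scaling 17 (14 higher and 3 lower), unscaled counts 18 (16 and 2), DESeq2 9, limma 12, and HP and DM libraries alone 5. The median log2 difference moved from -0.09 under TMM to 0.02, 0.26 and 0.30 under the other scalings. Leaving out 1 library gave 4 to 16 calls over the whole list, with 4 without HP replicate 1, 7 without HP replicate 2, 5 without DM replicate 2 and 6 without DM replicate 3. Within class the 13 calls became 10 with the class sum, 11 with median-of-ratios factors, 7 with HP and DM libraries alone and 7 to 16 with 1 library left out. The low-count filter removed no feature. Among genes called under TMM or the other setting, signs turned with nuclear scaling for COX1 (0.33), COX3 (0.32), CYTB (0.32), Gpx3 (0.022), Cyp4a2 (0.012), Gclc (0.35), Hao2 (0.24), Aadat (0.22), Slc3a1 (0.32) and Cyp2c23 (0.011), and with unscaled counts for COX1 (0.38), COX3 (0.36), CYTB (0.37), COX2 (0.39), Gpx3 (0.067), Pck1 (0.021), Cyp4a2 (0.056), Gclc (0.39), Hao2 (0.29), Aadat (0.26), Slc3a1 (0.37) and Cyp2c23 (0.057). Signs turned without a call under either setting for COX2 (0.34), ND3 (0.26), Glul (0.0056) and Miox (0.010) with nuclear scaling, and for ND3 (0.30), Glul (0.051), Miox (0.055) and Slc34a1 (0.0011) unscaled. By construction these settings differ in how far the mitochondrial counts enter the scaling. The log2 ratio of mitochondrial to nuclear sums ranged from 0.27 to 0.52 with 1 library left out, and was 0.42 without Gpx3 and Pck1 and 0.48 as a ratio of geometric means. The difference between diabetic and healthy effects gave 1 call under TMM, 5 by median-of-ratios, 9 by nuclear scaling and 7 unscaled. Within class it gave 10, and 8 to 12 with 1 library left out; these left-out values, the class references there and the ratio of geometric means were chosen after seeing the data. Ranks moved without overlap for 4 genes per kb and for 10 by count.

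Same-numbered HP and DM libraries did not deviate together for all 3 numbers (r of 0.44, 0.32 and 0.01 over the whole list, 0.03, 0.23 and -0.52 within class). With the replicate number as a block, calls were 12 over the whole list, 13 within class and, for the difference between diabetic and healthy effects, 3 under TMM and 10 within class. The fold at which 3 libraries a group can detect a change is limited by the spread between libraries and not by counting.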
